A study of Mus musculus with 26 samples.

Results

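Dexamethasone applied to MC903-inflamed mouse ear skin was compared with MC903 alone, using RNA of the 4 mice given both agents and the 8 mice given MC903 and drug-vehicle, chosen by their group labels from the 26 mice sequenced. All mice were wild type, and the study's methods describe them as female Balb/cAnNRj mice aged 8 weeks. MC903, also called calcipotriol, activates the vitamin D receptor and inflames mouse skin in a way used to model atopic dermatitis. It was given at 1 nmol per day for 6 days to the right ear, topical dexamethasone was given at 20 nmol per day, and treatment lasted 9 days. Both groups compared therefore carry the same MC903 challenge, and 6 mice given vehicle and drug-vehicle serve as the uninflamed background. The 8 mice given MC903 and RGRN-305 entered only the shared filter on low counts, scaling and estimate of spread. Each mouse was 1 library from a 4 mm ear biopsy taken on day 9, so the values describe whole ear tissue of one inbred strain after a short course of a single dose.

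Glucocorticoids such as dexamethasone bind the glucocorticoid receptor, a transcription factor held by heat shock proteins in the cytoplasm until a hormone releases it. In the nucleus the receptor switches on genes with glucocorticoid response elements, among them negative regulators of inflammation, and it restrains transcription driven by NF-kB and AP-1. In skin these drugs are known for relieving eczema, for removing Langerhans cells and other leukocytes, and for thinning the dermis through lower collagen synthesis.

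The counts of the 12 mice summed to between 14311046 (MC903 mouse 7) and 28838836 (dexamethasone mouse 4) per library, and 20167 genes had enough counts to be tested. Levels are given in CPM, which is the count of a gene relative to the scaled library size. Dexamethasone mouse 3 was the least like the other dexamethasone mice, by a small margin. Across genes, its log2 CPM values correlated at 0.9689 to 0.9811 with theirs, while the remaining pairs reached 0.9818 to 0.99. The pair of mice 2 and 3 (0.9811) was close to that of mice 1 and 2 (0.9818). MC903 mouse 7, the shallowest library, had a best correlation of 0.9795 with any other library, below the 0.9848 or more of the other MC903 mice. Keratinocyte genes defined the tissue in every library, with Krt5 between 5410 and 7360 CPM and Krt14 between 3290 and 16100 CPM over the 3 groups. Because a whole biopsy was read, fewer cells of a type and less RNA per cell cannot be told apart.

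Dexamethasone changed a large part of the transcriptome, more often downwards among the large changes. By edgeR's quasi-likelihood test, 4707 genes were lower and 4644 higher at an adjusted p below 0.05, which is 23.3% and 23% of the genes tested, and a gene called "lower" or "higher" below met this threshold. With the additional requirement of an absolute log2 fold change above 1.5, 1187 differentially expressed genes (DEGs) were lower and 524 higher, or 5.89% and 2.6%. Without mouse 3 these became 1423 and 652 DEGs, or 6.94% and 3.18% of 20514 genes, while the counts at the threshold alone were 4817 lower (23.5%) and 4688 higher (22.9%). All 4 dexamethasone mice lay below all 8 MC903 mice in 2817 genes (14%) and above them in 2564 genes (12.7%). The median log2 fold change over all genes was 0.00 in both fits. Counts of list members below are to be read against these shares: 23.3% lower and 23% higher, and 14% and 12.7% without overlap.

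**Figure D1:**
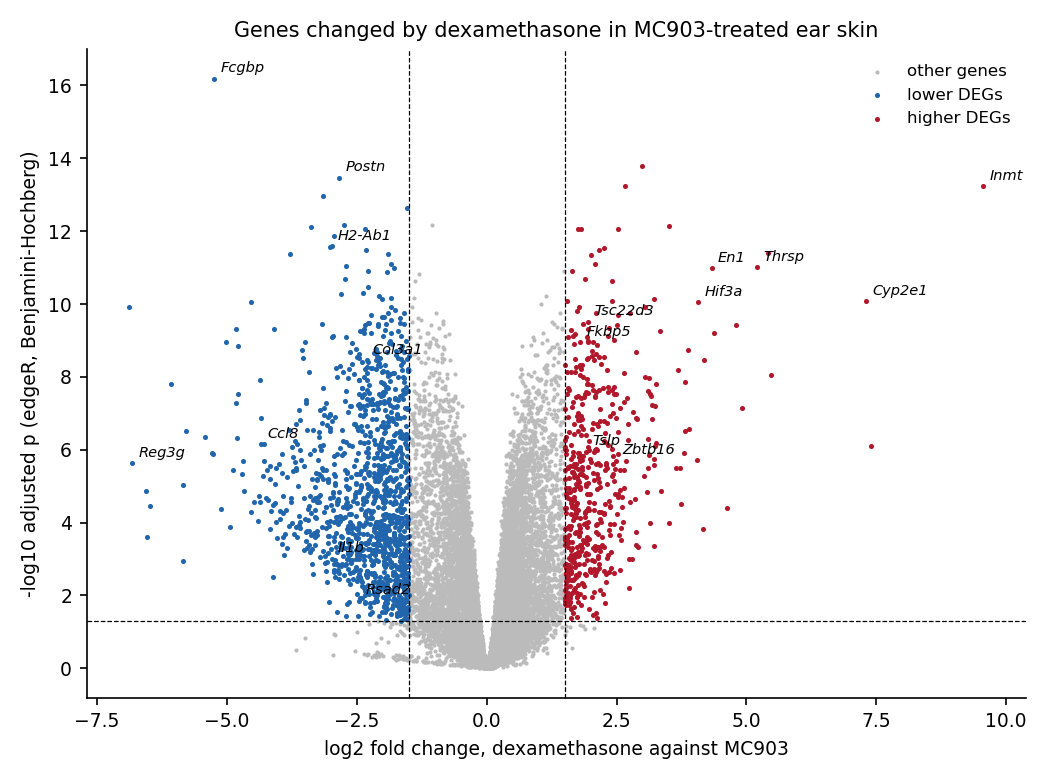
Log2 fold change of dexamethasone against MC903 (x axis) and −log10 adjusted p of edgeR's test (y axis) for the 20167 genes tested, 1 point per gene, with the limits for DEGs dashed. The 1187 lower DEGs (blue) outnumber the 524 higher DEGs (red), and Inmt is the point farthest to the right.

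The 3 largest rises were in genes with almost no reads in MC903-treated ears. Inmt, an indolethylamine N-methyltransferase, measured 17.7, 12.7, 4.15 and 17.3 CPM in dexamethasone mice 1 to 4, and only 2 reads were counted in the 8 MC903 mice against 1278 in the 4 dexamethasone mice, a ratio of 1140 (95% interval 316 to 9450 for counting error only). Cyp2e1, a cytochrome P450 that oxidises ethanol and other small molecules, measured 24.3, 11.6, 6.61 and 16.6 CPM against 0 to 0.236 CPM (median 0.0533) in MC903 mice (log2 fold change 7.30 ± 0.53 (SE), adjusted p = 8.23e-11, edgeR). Both genes had been present in vehicle mice, at 2.45 to 7.39 CPM (median 3.67) and 1.95 to 11.3 CPM (median 3.32). Cxcl13, the chemokine that draws B cells, rose from between 0 and 0.309 CPM (median 0.158) to 4.83, 12.8, 2.56 and 7.55 CPM, with no overlap, while the B cell receptor component Cd79b fell. The other genes among the 12 largest rises were Doc2b (5.42), Thrsp (5.21), Sv2b (4.81), Agt (4.37), En1 (4.33), Best2 (4.19), Myh4 (4.16), Hif3a (4.08) and Diras1 (3.87), as log2 fold changes. Of these, Agt encodes angiotensinogen and Thrsp a regulator of lipid synthesis in fat.

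Genes of the inflamed epidermis and of leukocytes were among the largest falls. Reg3g, which encodes an antibacterial lectin, measured 4.48 to 13.3 CPM (median 6.77) in MC903 mice and 0, 0, 0.256 and 0.0368 CPM in dexamethasone mice, where 6 reads remained against 1280, a 119-fold difference (95% counting interval 54.6 to 325). Fcgbp, which encodes an IgG Fc-binding mucus protein, had similar levels in vehicle and MC903 mice. It measured 161 to 206 CPM (median 191) in vehicle mice, 168 to 282 CPM (median 200) in MC903 mice and 4.50, 4.97, 6.20 and 5.93 CPM in dexamethasone mice, a log2 fold change of −5.25 ± 0.20 with the smallest adjusted p of the genes named here (6.55e-17). Other large falls were those of Cyp2g1 (−5.30), Grep1 (−4.83), Pyy (−4.78), Lce3a (−4.68), Cxcl5 (−4.41), Cd300ld (−4.37), Ccl8 (−4.34), Lpo (−4.29) and Gzma (−4.26).

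Genes known as targets of the glucocorticoid receptor were mostly higher with dexamethasone, and mouse 3 had the lowest of the 4 values in most of them. Of 24 listed targets, each of which passed the filter on low counts, 15 were higher, against 23% of all genes tested, and 1 was lower (Zfp36), against 23.3%. The median log2 fold change was 0.87, 8 were DEGs, and 11 had no overlap between the groups, against 12.7% of all genes. Fkbp5, a co-chaperone that lowers the receptor's own affinity for hormone, measured 215, 203, 158 and 218 CPM in dexamethasone mice 1 to 4 against 53.5 to 63.0 CPM (median 54.5) in MC903 mice and 38.7 to 81.5 CPM (median 57.8) in vehicle mice. No dexamethasone value overlapped with either group, and the log2 fold change was 1.81 ± 0.16 (SE; adjusted p = 1.11e-09, edgeR). Tsc22d3, which encodes the glucocorticoid-induced leucine zipper GILZ, measured 225, 179, 117 and 235 CPM against 38.9 to 57.6 CPM (median 47.4), a log2 fold change of 1.95 ± 0.16. MC903 alone had lowered it from between 86.7 and 119 CPM (median 103) in vehicle mice. Zbtb16, a zinc finger transcription factor, measured 61.2, 35.6, 22.5 and 59.0 CPM against 4.98 to 10.3 CPM (median 8.04) (log2 fold change 2.49 ± 0.33), and the clock gene Per1 measured 131, 110, 64.8 and 126 CPM against 17.5 to 35.9 CPM (median 28.5) (1.96 ± 0.29).

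The 3 transcription factor genes next described had the same order of mice, with mouse 3 lowest, then 2, 1 and 4. Klf15, which drives amino acid breakdown, reached 16.2, 12.6, 6.36 and 19.2 CPM against 1.39 to 3.39 CPM (median 2.64) in MC903 mice (log2 fold change 2.35 ± 0.20), and Klf9, a repressor in the same family, reached 137, 116, 60.8 and 148 CPM against 38.6 to 60.7 CPM (median 43.9) (1.36 ± 0.16). Hif3a, a hypoxia-inducible factor subunit, had the largest rise on the list, from between 0.0773 and 0.352 CPM (median 0.249) to 5.32, 3.24, 2.46 and 5.52 CPM (4.08 ± 0.32). The cell cycle inhibitor Cdkn1c was the exception in order, with its highest value in mouse 3 (33.1, 37.1, 46.8 and 34.6 CPM against 8.66 to 17.7 CPM (median 11.7)). Mouse 3 was the lowest of the 4 dexamethasone mice in 15 of the 24 targets and the highest in 6, against 6805 and 7066 of all 20167 genes. Without it the list held 16 higher and 3 lower genes with a median of 0.92.

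The other 8 targets did not pass the test. Dusp1, the phosphatase that switches off p38 and JNK, measured 40.8, 52.9, 29.0 and 39.7 CPM in dexamethasone mice, overlapping with the 33.7 to 106 CPM (median 47.2) of MC903 mice (log2 fold change −0.48 ± 0.25, adjusted p = 0.122). Nfkbia, the inhibitor of NF-kB, measured 155, 180, 116 and 167 CPM against 126 to 312 CPM (median 175) (adjusted p = 0.267), and Anxa1, the lipocortin gene, had an adjusted p of 0.0561. The ion transport kinase Sgk1 was higher by 0.30 ± 0.08 on the log2 scale, a call lost without dexamethasone mouse 4 (adjusted p = 0.0517). Zfp36, which encodes an mRNA-destabilising protein, was lower, with a log2 fold change of −0.63 ± 0.14. Shares near the 23% and 23.3% of all genes were called among the 10 tested genes of the receptor and its partners: 2 were higher (the mineralocorticoid receptor Nr3c2, 0.75, and the coactivator Ncoa2, 0.54) and 2 lower (Hsd11b1, −0.45, which regenerates active glucocorticoid, and the co-chaperone Ptges3, −0.37), while the receptor gene Nr3c1 had a log2 fold change of −0.14 ± 0.07 (adjusted p = 0.117). The call of Hsd11b1 was lost without dexamethasone mouse 1 (adjusted p = 0.0836), and that of Ptges3 without dexamethasone mice 1, 2 or 4 or MC903 mice 5, 7 or 8 (adjusted p = 0.0563 to 0.164).

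**Figure D2:**
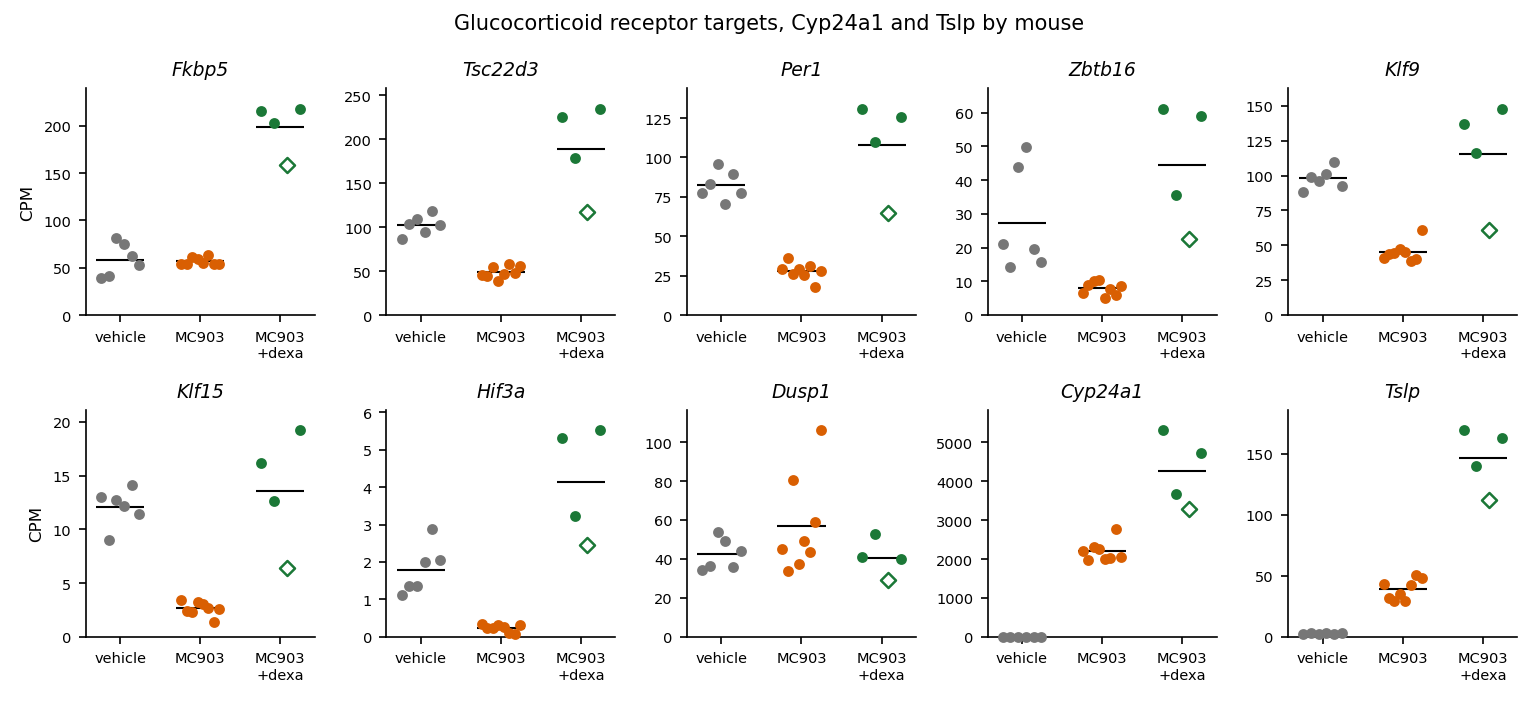
CPM (linear axes from 0) of 8 glucocorticoid receptor targets, Cyp24a1 and Tslp in each vehicle, MC903 and MC903 plus dexamethasone mouse, 1 point per mouse, with horizontal bars for group means and an open diamond for dexamethasone mouse 3. All dexamethasone mice lie above all MC903 mice for every gene shown except Dusp1.

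Cyp24a1 and Tslp, which MC903 induces, were higher with the steroid than without it. Cyp24a1, the vitamin D 24-hydroxylase that the activated vitamin D receptor induces, measured 5310, 3680, 3300 and 4740 CPM in dexamethasone mice against 1970 to 2780 CPM (median 2120) in MC903 mice, and 0 to 0.687 CPM (median 0) in vehicle mice. Every dexamethasone mouse was above every MC903 mouse, and the log2 fold change was 0.95 ± 0.23 (adjusted p = 0.00128). The receptor gene Vdr was higher by 0.20 ± 0.07 with overlapping groups, a call lost without dexamethasone mice 1 or 4 or MC903 mice 1 or 8 (adjusted p = 0.0526 to 0.172), and no gene of the 5 on the vitamin D list was lower. Tslp, the epithelial cytokine that MC903 induces and that primes type 2 immunity, rose further under dexamethasone. It measured 2.09 to 3.39 CPM (median 2.51) in vehicle mice, 28.9 to 50.7 CPM (median 38.7) in MC903 mice and 169, 140, 112 and 163 CPM in dexamethasone mice, a log2 fold change of 1.92 ± 0.25 (adjusted p = 1.12e-06). Among the other 4 alarmins tested, Hmgb1 (−0.40) and Il18 (−0.33) were lower, Il1a measured 47.3, 42.7, 42.3 and 43.0 CPM against 31.2 to 66.4 CPM (median 39.8), and Il33 measured 94.8, 118, 239 and 111 CPM against 138 to 345 CPM (median 213), with adjusted p values of 0.545 and 0.0702. The call of Il18 was lost without dexamethasone mice 1, 3 or 4 or MC903 mice 1, 5, 7 or 8 (adjusted p = 0.0509 to 0.188). Without dexamethasone mouse 3, Il33 had a log2 fold change of −1.02 and an adjusted p of 0.00609.

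Type 2 cytokines and their receptors were mostly lower. Of 14 tested cytokines and receptors (18 were listed), 11 were lower and none higher, with a median of −1.37, and 8 had no overlap between the groups, against 14% of all genes. Il13, a driver of barrier loss and itch, measured 0.0409, 0.13, 0.615 and 0 CPM in dexamethasone mice against 0.943 to 2.67 CPM (median 1.93) in MC903 mice (log2 fold change −3.34 ± 0.57, adjusted p = 2.4e-05), and the mouse 3 value was the highest of the 4. Il4, the cytokine that commits T cells to the type 2 fate, measured 0.0818, 0.0864, 0.513 and 0.331 CPM against 0.831 to 3.40 CPM (median 0.933) (−2.37 ± 0.56, adjusted p = 0.00107). Both are genes of a few reads per library, so each value has a wide counting error. The receptor Il4ra fell from between 112 and 253 CPM (median 146) to 41.2, 62.2, 101 and 53.8 CPM and the decoy receptor Il13ra2 from between 10.5 and 19.1 CPM (median 13.3) to 0.696, 3.20, 3.18 and 2.1 CPM. Gata3, the transcription factor of type 2 lymphocytes that keratinocytes also express, went from between 139 and 195 CPM (median 166) to 63.8, 53.0, 66.1 and 61.5 CPM. Not called were the growth factor Areg (−0.48, adjusted p = 0.219) and the IL-33 receptor Il1rl1 (−0.32, adjusted p = 0.173).

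Chemokines of type 2 inflammation divided. Ccl8, a ligand of CCR8, had 199 to 514 CPM (median 263) in MC903 mice, 1.84, 19.0, 34.7 and 8.17 CPM in dexamethasone mice and 12.7 to 20.6 CPM (median 15.2) in vehicle mice, so that the steroid values span the vehicle range (log2 fold change −4.34 ± 0.53, adjusted p = 7.12e-07). Ccl22, made by dendritic cells to attract CCR4-bearing T cells, fell below even its vehicle level of 3.04 to 5.53 CPM (median 4.13), from between 8.59 and 12.8 CPM (median 10.1) to 1.35, 1.64, 2.26 and 2.58 CPM. The other CCR4 ligand, Ccl17, measured 1.27, 2.72, 2.15 and 1.62 CPM against 1.78 to 2.77 CPM (median 1.99) (adjusted p = 0.765), and the eotaxin Ccl11 measured 9.94, 11.6, 13.5 and 11.4 CPM against 6.96 to 11.9 CPM (median 9.18) (adjusted p = 0.147). In all, 3 of 6 were lower and none higher.

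Cytokines of innate inflammation were mostly lower. Il1b, the central pyrogenic cytokine, measured 0.298 to 1.0 CPM (median 0.745) in vehicle mice, 28.0 to 92.9 CPM (median 42.2) in MC903 mice and 1.35, 3.80, 19.8 and 2.39 CPM in dexamethasone mice, with a log2 fold change of −2.98 ± 0.68 (adjusted p = 0.000976). The inflammasome sensor Nlrp3 (−1.61) and Casp1 (−1.22), which cleaves pro-IL-1β, were lower with it. Il36a (−1.15) and Il36g (−0.61), keratinocyte cytokines of the IL-1 family, were lower by less, and the shared receptor chain Il1rap was higher, at 53.9, 55.1, 45.8 and 60.0 CPM against 28.8 to 37.8 CPM (median 32.4). That made 9 lower and 1 higher of 14, with a median of −0.29, or 7 lower and 2 higher without mouse 3, with a median of −0.24.

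Il6, which drives acute phase and T cell responses, measured 0.164, 1.17, 6.36 and 0.663 CPM against 5.77 to 12.2 CPM (median 7.42), and mouse 3 lay inside the MC903 range while the other 3 did not. Its log2 fold change was −2.11 ± 0.62 (adjusted p = 0.00796) with mouse 3 and −3.72 (adjusted p = 2.64e-05) without it. The IL-20 cytokines Il19 and Il24, which act on keratinocytes, fell from between 26.1 and 119 CPM (median 52.2) to 0.368, 1.73, 11.9 and 2.76 CPM and from between 5.17 and 53.9 CPM (median 14.7) to 0.614, 1.69, 6.41 and 0.921 CPM. Il22ra1, a receptor chain for IL-24, was higher (0.90), and Il20ra, a receptor chain for both, was lower (−0.37, adjusted p = 0.0452, and 0.14 without mouse 3). Of these families 8 of 11 tested genes were lower (median −0.97), and 7 without mouse 3 (median −1.32). Il17a, Il17f, Il22, Il23a, Il12b and Il17c had too few reads to test.

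In the TNF and NF-kB pathway 12 of 15 genes were lower and 1 higher, with a median of −0.92. These became 11 lower and 2 higher without mouse 3, with a median of −1.18. Ltb, a TNF family cytokine of lymphocytes, went from between 11.5 and 30.0 CPM (median 15.6) to 0.573, 1.21, 3.33 and 0.994 CPM, near its vehicle level (2.13 to 2.72 CPM (median 2.33)). Traf1 (−2.30), Nfkbie (−1.91), Nfkb2 (−1.04), Relb (−0.92) and Birc3 (−0.85), all genes that NF-kB itself induces, were lower with no overlap between groups. Tnf had a log2 fold change of −2.16 ± 0.36 (adjusted p = 1.9e-05). The AP-1 genes Fos (−1.40), Atf3 (−1.57) and Junb (−0.33) were lower, Jun was not called (−0.11, adjusted p = 0.433), and of the phosphatases Dusp6 was lower (−1.33) and Dusp4 higher (1.04). The call of Fos was lost without dexamethasone mice 1 or 4 (adjusted p = 0.0517 to 0.0521).

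Cxcl1, Cxcl2, Cxcl3 and Cxcl5, chemokines that attract neutrophils, lie close together on chromosome 5. These 4 of the 7 listed neutrophil attractants and growth factors held the NF-kB letters GGACTTTCC or GGAATTTCC, on either strand, within 250 bases before to 50 bases after the start of transcription (GRCm39). Over the 21770 protein-coding promoters of this length, 0.689% held them. The 250 bases before the start are shown for these 4 because the same letters recur at a like distance from the start in chemokine genes whose values are compared next, with the matching letters in capitals.
Cxcl1 (chr5:91038844-91039093, plus strand): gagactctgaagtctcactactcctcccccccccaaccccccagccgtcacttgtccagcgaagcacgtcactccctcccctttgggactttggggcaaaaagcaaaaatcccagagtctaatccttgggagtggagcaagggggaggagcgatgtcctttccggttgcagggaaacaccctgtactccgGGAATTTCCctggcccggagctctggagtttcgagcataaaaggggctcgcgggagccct
Cxcl2 (chr5:91051480-91051729, plus strand): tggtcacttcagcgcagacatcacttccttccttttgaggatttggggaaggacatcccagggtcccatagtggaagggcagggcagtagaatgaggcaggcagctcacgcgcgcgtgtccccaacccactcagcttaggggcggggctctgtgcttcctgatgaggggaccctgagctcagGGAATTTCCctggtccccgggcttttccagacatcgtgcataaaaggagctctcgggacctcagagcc
Cxcl3 (chr5:90933712-90933961, plus strand): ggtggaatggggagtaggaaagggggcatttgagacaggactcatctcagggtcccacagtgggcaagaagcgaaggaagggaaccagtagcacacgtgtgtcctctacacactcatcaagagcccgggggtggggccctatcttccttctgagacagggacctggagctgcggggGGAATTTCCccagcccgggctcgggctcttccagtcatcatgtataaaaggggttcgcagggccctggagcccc
Cxcl5 (chr5:90906987-90907236, plus strand): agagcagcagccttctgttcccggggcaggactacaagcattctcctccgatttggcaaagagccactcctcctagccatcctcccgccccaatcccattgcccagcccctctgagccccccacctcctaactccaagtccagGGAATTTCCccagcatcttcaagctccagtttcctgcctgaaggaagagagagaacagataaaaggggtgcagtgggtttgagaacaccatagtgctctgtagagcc

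The match began 60 bases before the start in Cxcl1, 68 in Cxcl2, 74 in Cxcl3 and 107 in Cxcl5. These genes encode ligands of CXCR2. Each had a negative log2 fold change (Cxcl1 −1.30, Cxcl2 −2.49, Cxcl3 −1.60 and Cxcl5 −4.41), and they differed in size and in whether they passed the test. Cxcl5 fell from between 16.1 and 87.0 CPM (median 27.6) to 1.02, 1.21, 4.72 and 1.44 CPM with no overlap (log2 fold change −4.41 ± 0.79, adjusted p = 8.96e-05), and Cxcl3 went from between 0.519 and 3.79 CPM (median 1.35) to 0.409, 0.432, 0.666 and 0.405 CPM (adjusted p = 0.0456, and 0.0532 without mouse 3). Cxcl2 measured 0.0818, 0.389, 2.1 and 0.184 CPM against 0.189 to 13.4 CPM (median 2.84) and Cxcl1 0.696, 3.67, 5.54 and 1.18 CPM against 1.84 to 14.5 CPM (median 4.95), with adjusted p values of 0.102 and 0.0749, which became 0.0372 and 0.0246 without mouse 3. The call of Cxcl3 was lost without dexamethasone mice 1, 2, 3 or 4 or MC903 mice 1, 3, 4, 5 or 7 (adjusted p = 0.0522 to 0.108). Tslp, which rose, also held the NF-kB letters. Of the 24 glucocorticoid targets, 2 held the half-site AGAACA (Cd163 and Il1r2), against 16.973% of all promoters. The exact full element of AGAACA, any 3 bases and TGTTCT was found in 0 of all 21770 promoters. That search therefore could not tell the targets from other genes, and sequence beyond the promoter window or inexact matches were not searched.

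Genes induced by type I interferon were lower almost without exception, and by less in mouse 3 than in the other dexamethasone mice. Of 22 listed, 21 were lower and 19 were DEGs, with a median of −2.19, and 17 had no overlap. Mouse 3 had the highest level of the 4 dexamethasone mice in all 22, and without it all 22 were lower with a median of −3.45. The summed level of the list was 2040 to 3520 CPM in MC903 mice, 95.7 to 143 CPM in vehicle mice and 115 to 1760 CPM in dexamethasone mice, where mouse 3 had the 1760 CPM. Rsad2, which encodes the antiviral enzyme viperin, measured 0.368, 18.2, 83.7 and 4.23 CPM in dexamethasone mice 1 to 4, against 86.2 to 211 CPM (median 141) in MC903 mice and 0.761 to 1.42 CPM (median 1.04) in vehicle mice. Mouse 1 was below the vehicle range and mouse 3 just below the MC903 range, and the log2 fold change was −2.45 ± 0.79 (adjusted p = 0.0139), or −4.26 (adjusted p = 0.000226) without mouse 3. Irf7, the master transcription factor of the response, measured 12.7, 51.2, 139 and 25.6 CPM against 150 to 300 CPM (median 260), and the nucleic acid sensor Zbp1 0.818, 9.21, 28.5 and 1.88 CPM against 46.6 to 90.4 CPM (median 70.8). The order of mice was the same in each of them, with mouse 1 lowest, then 4, 2 and 3. Oasl1 was the exception on the list, at 0.409, 6.53, 19.0 and 1.29 CPM against 7.41 to 22.7 CPM (median 15.8) (adjusted p = 0.135, and 0.00546 without mouse 3).

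In their promoters, 13 of the 22 genes held the letters GAAANNGAA of the interferon-stimulated response element on either strand, compared with 8.778% of all promoters. Rsad2 and Zbp1 are printed as examples with 1 match and with several, in capitals; the capitals read TTCNNTTTC because these matches lie on the opposite strand.
Rsad2 (chr12:26506452-26506701, minus strand): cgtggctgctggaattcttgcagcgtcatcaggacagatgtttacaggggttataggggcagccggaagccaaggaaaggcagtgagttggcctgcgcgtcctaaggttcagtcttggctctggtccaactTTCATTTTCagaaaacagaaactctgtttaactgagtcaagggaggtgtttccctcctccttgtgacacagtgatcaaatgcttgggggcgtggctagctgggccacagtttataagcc
Zbp1 (chr2:173060725-173060974, minus strand): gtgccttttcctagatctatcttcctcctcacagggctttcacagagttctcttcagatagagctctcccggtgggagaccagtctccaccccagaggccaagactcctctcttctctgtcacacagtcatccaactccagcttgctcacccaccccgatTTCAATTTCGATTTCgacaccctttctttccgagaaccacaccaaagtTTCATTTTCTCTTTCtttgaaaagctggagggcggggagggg

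The match of Rsad2 began 119 bases before the start, and the 4 matches of Zbp1, which overlap in pairs, began 90, 84, 42 and 36 bases before it. A match of letters is a description and not a bound site.

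The interferon-gamma response showed the same dependence on mouse 3. Of 20 genes, 18 were lower with a median of −1.70, and without mouse 3 all 20 were, with a median of −2.73. Cxcl11, a chemokine for CXCR3-bearing T cells, measured 0.45, 3.93, 14.3 and 1.33 CPM against 37.4 to 81.2 CPM (median 55.9) (−3.61 ± 0.66, adjusted p = 0.000117), and Ciita, the master regulator of MHC class II, 3.03, 5.36, 12.5 and 2.25 CPM against 21.2 to 36.0 CPM (median 28.2) (−2.29 ± 0.30). Irf1, an interferon-induced transcription factor, and the GTPase Igtp were the exceptions. Irf1 measured 12, 57.7, 186 and 25.3 CPM against 118 to 177 CPM (median 151), so that mouse 3 exceeded every MC903 mouse while mouse 1 lay just below the vehicle range of 13 to 20.2 CPM (median 14.2). Their adjusted p values were 0.0582 and 0.0855 with mouse 3 and 8.56e-05 and 0.00161 without it.

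**Figure D3:**
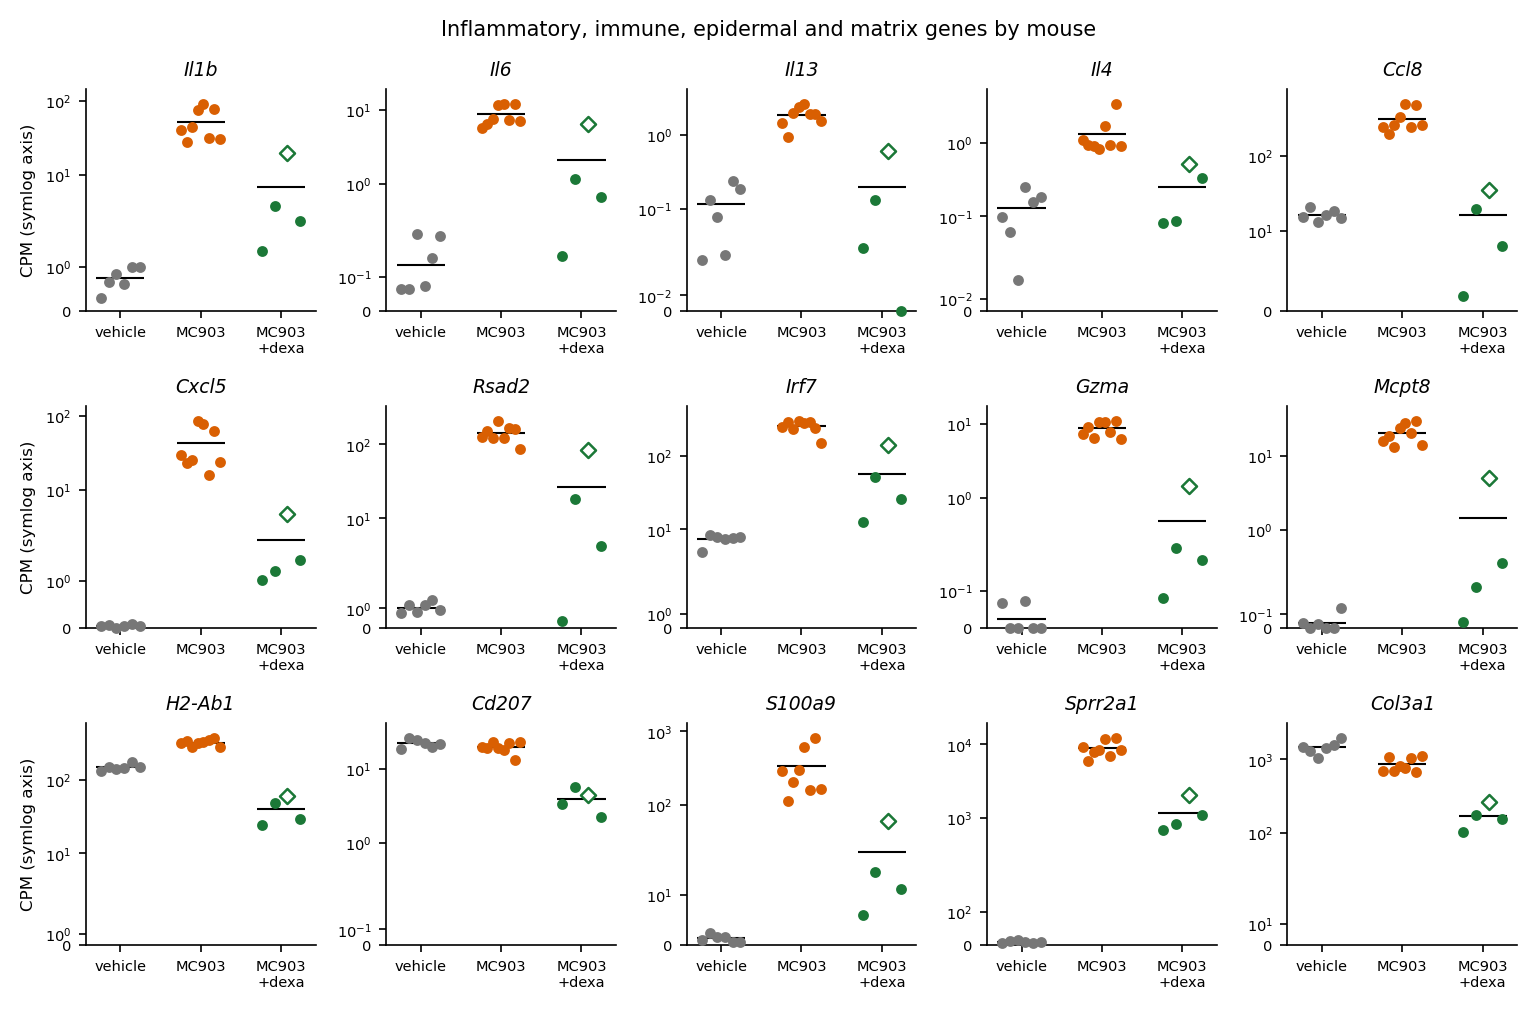
CPM on symmetric log axes (linear near 0) of 15 genes in each vehicle, MC903 and MC903 plus dexamethasone mouse, with bars for group means and an open diamond for dexamethasone mouse 3. Mouse 3 is the highest of the 4 dexamethasone mice in every panel except Cd207.

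Lymphocyte genes were lower. All 17 T cell genes listed and tested were lower and 16 were DEGs, with a median of −2.67, or −3.27 without mouse 3. Their summed level was 75.2 to 139 CPM in MC903 mice, 9.90 to 32.2 CPM in dexamethasone mice and 16.8 to 25.2 CPM in vehicle mice, so the steroid values straddled the uninflamed level. Cd3g, a chain of the T cell receptor complex, measured 0.368, 0.821, 1.33 and 0.405 CPM against 4.23 to 9.58 CPM (median 5.23) (−3.10 ± 0.35, adjusted p = 5.14e-08). Ctla4 and Icos, checkpoint and costimulatory receptors of activated T cells, fell by 2.95 and 2.97 on the log2 scale. Cd28 fell below its vehicle level, at 0.655, 1.34, 0.923 and 0.884 CPM against 3.04 to 6.02 CPM (median 4.33) in MC903 mice and 3.45 to 4.99 CPM (median 3.77) in vehicle mice.

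Genes of natural killer and cytotoxic cells were lower too. Of 9 tested, 8 were lower with no overlap, with a median of −3.41. The 9 genes summed to 29.1 to 68.6 CPM in MC903 mice, 1.68 to 13.7 CPM in dexamethasone mice and 0.509 to 2.37 CPM in vehicle mice. As the filter on low counts favours genes that are high in MC903 mice, the size of their fall is not evidence by itself. Gzma, a granule protease, measured 0.0818, 0.216, 1.44 and 0.184 CPM against 6.19 to 11.1 CPM (median 8.40), the natural killer receptor Ncr1 0, 0.0432, 0.615 and 0 CPM against 1.33 to 3.71 CPM (median 3.30), and the transcription factor Eomes 0, 0.0432, 0.256 and 0 CPM against 1.01 to 2.06 CPM (median 1.17). Klrb1c was not called, at 0.777, 0.605, 0.82 and 0.589 CPM against 0.533 to 1.52 CPM (median 0.935) (adjusted p = 0.246). Of 3 B cell genes tested, Ighm (−2.11) and Cd79b (−1.73) were lower.

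Genes of antigen presentation were lower, and the MHC class II genes and Cd207 lay below the vehicle range in every dexamethasone mouse. Of 18 dendritic and Langerhans cell genes, 17 were lower and 15 had no overlap, with a median of −2.05. The MHC class II genes H2-Ab1, H2-Aa and H2-Eb1 and their invariant chain Cd74 shared one pattern. H2-Ab1 measured 130 to 174 CPM (median 145) in vehicle mice, 274 to 371 CPM (median 320) in MC903 mice and 23.9, 47.6, 59.6 and 29.5 CPM in dexamethasone mice, a log2 fold change of −2.99 ± 0.18 (adjusted p = 2.57e-12). H2-Eb1 (−3.02 ± 0.19), H2-Aa (−2.94 ± 0.18) and Cd74 (−2.71 ± 0.18) moved alike. Cd207, the langerin gene that defines Langerhans cells, was lower with the steroid, at 3.40, 5.71, 4.46 and 2.21 CPM against 13.2 to 23.2 CPM (median 19.8) in MC903 mice and 18.7 to 26.8 CPM (median 22.4) in vehicle mice (−2.35 ± 0.20, adjusted p = 3.72e-10). Without mouse 3 the log2 fold changes were −2.41 for Cd207 and −3.24 for H2-Ab1. The one gene on the list that was not called, Fscn1, measured 42.6, 38.6, 50.8 and 39.8 CPM against 33.1 to 66.5 CPM (median 43.6).

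Genes of eosinophils, basophils and neutrophils were mostly lower. Il5ra, the eosinophil growth factor receptor, had 77 reads in the 8 MC903 mice and 0 in the 4 dexamethasone mice, at least 14.3-fold lower against a floor of 3 counts over the group. Ccr3, the eotaxin receptor, measured 0.0409, 0.0432, 0.0513 and 0 CPM against 0.373 to 2.09 CPM (median 1.06). Mcpt8, the defining protease of basophils, measured 0.0409, 0.303, 4.97 and 0.479 CPM against 13.2 to 30.2 CPM (median 19.4) and was almost absent in vehicle mice (0 to 0.149 CPM (median 0.0127)); its log2 fold change was −3.92 ± 0.67 (adjusted p = 5.37e-05), or −6.17 without mouse 3. Epx and Prg2, eosinophil granule genes, had too few reads to test. The 3 eosinophil genes tested summed to 1.08 to 3.71 CPM in MC903 mice and 0.0409 to 0.461 CPM in dexamethasone mice. In vehicle mice they summed to 0.118 to 0.362 CPM. The filter on low counts therefore favours genes that are high in MC903 mice, and the size of their fall is not evidence by itself. Neutrophil genes were lower in 8 of 10 tested (13 were listed), with a median of −2.08, and, without mouse 3, in 10 of 10. The neutrophil genes Mmp8 (−0.88) and Retnlg (−0.89) were not called with all 4 dexamethasone mice. Csf3r, the G-CSF receptor, measured 3.07, 7.87, 16.3 and 5.97 CPM against 23.1 to 53.6 CPM (median 28.0) and Cxcr2 14.1, 18.2, 31.6 and 15.3 CPM against 49.0 to 80.4 CPM (median 57.4). The haemoglobin and Alas2 transcripts of blood in the biopsy were also lower in 4 of 5 genes, with sums of 21.1 to 187 CPM in dexamethasone mice (mouse 3 highest) and 67.9 to 226 CPM in MC903 mice, and their part in the granulocyte values was not tested. Alas2 lost its call without dexamethasone mice 1, 2 or 4 or MC903 mice 2 or 5 (adjusted p = 0.0532 to 0.15), the near-identical copies Hba-a1 and Hba-a2, whose separate counts are uncertain, without dexamethasone mice 1, 2 or 4 or MC903 mice 1, 2, 3, 5 or 6 (adjusted p = 0.0514 to 0.148) and without dexamethasone mice 1, 2 or 4 or MC903 mouse 5 (adjusted p = 0.0524 to 0.123), and Hbb-bs without dexamethasone mice 1, 2 or 4 or MC903 mice 2 or 5 (adjusted p = 0.051 to 0.127), while without mouse 3 all 5 genes were lower.

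Some mast cell genes, among them the tryptases, went the other way. Tpsab1 and Tpsb2, the tryptases of connective tissue mast cells, measured 78.3, 75.7, 55.6 and 84.5 CPM and 43.9, 45.4, 32.8 and 45.7 CPM in dexamethasone mice against 18.3 to 29.4 CPM (median 21.5) and 14.9 to 19.3 CPM (median 17.5) in MC903 mice. The groups did not overlap, with log2 fold changes of 1.73 ± 0.14 (adjusted p = 1.6e-10) and 1.27 ± 0.11 (adjusted p = 3.15e-10). Mrgprb2, the mast cell receptor for basic secretagogues, rose from between 0.132 and 1.15 CPM (median 0.422) to 3.23, 3.98, 2.26 and 3.61 CPM, near the vehicle range of 2.34 to 6.24 CPM (median 3.58). Carboxypeptidase Cpa3 was higher (0.62), while Kit, the mast cell growth factor receptor, measured 10.1, 12.7, 9.69 and 12.4 CPM against 8.48 to 13 CPM (median 10.2) and Ms4a2, a chain of the IgE receptor, 7.20, 9.60, 7.18 and 8.87 CPM against 6.65 to 12.7 CPM (median 9.88), neither called. Of 12 mast cell and basophil genes 6 were higher and 3 lower, against 23% and 23.3% of all genes. The lower ones were the basophil gene Mcpt8, Hdc and Gata2. Without mouse 3, 5 were higher and 4 lower, against 22.9% and 23.5% of all genes. Fcer1a, another chain of the IgE receptor, was then lower (log2 fold change −0.86, adjusted p = 0.0172, edgeR).

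Most macrophage genes were lower. Of 14 general macrophage and monocyte genes, 13 were lower with a median of −1.08. Ly6c2 and Fcgr1, genes of inflammatory monocytes, fell by 2.47 and 2.1 on the log2 scale, but Csf1r by only 0.73, and C1qb measured 26.6, 45.5, 43.6 and 43.0 CPM against 41.5 to 56.1 CPM (median 53.1) (adjusted p = 0.0573). Ccr2, the receptor that brings monocytes into tissue, measured 5.2, 14.9, 40.0 and 7.18 CPM against 85.4 to 130 CPM (median 102), and of 13 monocyte chemokines and receptors 11 were lower (median −1.76, and −2.26 without mouse 3). Of 10 genes of alternative or resident macrophages, 4 were lower and 3 higher, against 23.3% and 23% of all genes. The lower ones were Timd4 (−2.71) and Folr2 (−0.78) of resident macrophages, and Arg1 (−1.98) and Mrc1 (−1.21), which interleukin-4 induces. F13a1, the coagulation factor of resident dermal macrophages, was higher at 73.0, 92.4, 72.4 and 92.1 CPM against 19.8 to 49.3 CPM (median 30.6), Lyve1 was higher at 32.2, 34.1, 28.3 and 34.7 CPM against 15 to 21.6 CPM (median 16.8), and the scavenger receptor gene Cd163 measured 60.1, 71.4, 64.5 and 77.1 CPM against 53.0 to 95.6 CPM (median 64.0) (adjusted p = 0.962).

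Of 13 genes of the endothelium and of leukocyte entry 5 were lower and 3 higher, against 23.3% and 23% of all genes. Vcam1 fell from between 7.64 and 11.3 CPM (median 9.55) to 2.00, 3.33, 4.92 and 2.91 CPM (−1.56 ± 0.21) and Icam1 from between 41.5 and 55.5 CPM (median 47.5) to 12, 26.1, 50.3 and 22.3 CPM (−0.79 ± 0.23, or −1.25 without mouse 3), and these capture leukocytes. Pecam1 and Cdh5, present on all endothelium, measured 44.3, 57.0, 45.7 and 54.2 CPM against 39.7 to 55.6 CPM (median 51.0) and 17.6, 18.4, 19.9 and 21.8 CPM against 12.5 to 20.1 CPM (median 17.9), with adjusted p values of 0.868 and 0.312. Lymphatic genes moved apart: Prox1 (1.21), Flt4 (1.29), Reln (2.08) and Lyve1 (0.92) were higher, while the chemokine Ccl21a fell to 3.60, 7.91, 12.8 and 4.53 CPM from between 28.7 and 47.1 CPM (median 37.7), beneath the 50.6 to 81.2 CPM (median 62.8) of vehicle mice.

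Complement genes followed no single direction. C1ra (−1.58), C1s1 (−1.54) and C2 (−1.93) of the classical pathway were lower, and the central component C3 rose from between 67.3 and 106 CPM (median 80.7) to 195, 206, 182 and 201 CPM (1.22 ± 0.22). Of 11 genes 6 were lower and 4 higher, against 23.3% and 23% of all genes. Lipid mediators were mostly lower, 11 of 15, with 1 higher. Alox15, a lipoxygenase of eosinophils and macrophages, fell from between 3.31 and 7.07 CPM (median 4.06) to 0, 0.346, 0.82 and 0.184 CPM, Alox5ap, required for leukotriene synthesis, from between 47.4 and 70.1 CPM (median 55.3) to 8.80, 12.7, 21.4 and 11.7 CPM, and the inducible cyclooxygenase Ptgs2 had a log2 fold change of −1.98. Hpgd, which inactivates prostaglandin E2, was the one that rose, at 43.7, 26.5, 19.5 and 37.6 CPM against 9.71 to 13.6 CPM (median 10.7) (1.54 ± 0.16, adjusted p = 7.57e-09).

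Genes of the stressed epidermis were mostly lower. Of 23 tested stress genes 18 were lower, with a median of −2.11. Sprr2a1, a cornified envelope precursor, went from between 5910 and 12400 CPM (median 8320) to 699, 844, 2050 and 1100 CPM, which was still far above the 4.03 to 14.6 CPM (median 8.66) of vehicle mice. S100a8 and S100a9, the calprotectin subunits that neutrophils and stressed keratinocytes both make, fell to 9.37, 16.1, 45.3 and 13.8 CPM and 5.93, 14.5, 60.0 and 11.1 CPM from between 92.7 and 615 CPM (median 204) and 113 to 821 CPM (median 250). The hyperproliferation keratins Krt6a and Krt6b were not called: Krt6a measured 1650, 1900, 4440 and 1910 CPM against 1660 to 7290 CPM (median 3540) (adjusted p = 0.305), and Krt6b 653, 1240, 4670 and 1400 CPM against 2960 to 9690 CPM (median 5450) (adjusted p = 0.0666, and 0.0111 without mouse 3).

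Host defence genes divided. Saa3, an acute phase protein, fell from between 8.64 and 47.0 CPM (median 16.3) to 0.246, 1.64, 5.02 and 1.22 CPM, Slpi, a protease inhibitor, from between 57.2 and 202 CPM (median 80.2) to 44.1, 41.4, 62.0 and 34.6 CPM, and 6 of 12 antimicrobial genes were lower in all. Defb4, a beta-defensin, rose from between 0.896 and 1.55 CPM (median 1.25) to 8.39, 4.06, 6.61 and 5.67 CPM (2.34 ± 0.26, adjusted p = 2.54e-08), and was nearly absent in vehicle mice.

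Of 23 genes of terminal differentiation 8 were higher and 1 lower, against 23% and 23.3% of all genes, with a median of 0.13. Hrnr, a filaggrin-like protein of the cornified layer, measured 11800, 10300, 7960 and 9630 CPM against 1950 to 3950 CPM (median 3630) (1.62 ± 0.16, adjusted p = 7.42e-09), the largest rise on that list. The keratins of the suprabasal layers Krt10 (0.51) and Krt2 (0.47), the desmosomal gene Cdsn (0.49) and the tight junction gene Cldn1 (0.32) were higher by less. Flg, the barrier gene most tied to eczema, measured 3420, 4630, 2110 and 3120 CPM against 2680 to 3670 CPM (median 3150) (adjusted p = 0.9), above the 519 to 1260 CPM (median 944) of vehicle mice in both groups. The keratin gene Krt77 was the lower one (−2.49). Lipid barrier genes were higher in 7 of 14 and lower in 2 (1 without mouse 3), against 23% and 23.3% of all genes. Abca12, the transporter that fills lamellar bodies, measured 508, 387, 326 and 439 CPM against 250 to 292 CPM (median 261). The lipoxygenase Alox12b measured 349, 300, 250 and 341 CPM against 176 to 239 CPM (median 198).

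Few genes of the cell cycle passed the test. Of 20, 2 were lower and 2 higher, with a median of −0.09, against 23.3% and 23% of all genes. Mki67 measured 166, 168, 173 and 175 CPM against 126 to 147 CPM (median 135) and 65.0 to 93.5 CPM (median 78.8) in vehicle mice, and Top2a measured 112, 121, 152 and 126 CPM against 134 to 157 CPM (median 148) and 45.0 to 60.1 CPM (median 54.6). Mki67 was higher (0.34 ± 0.09, adjusted p = 0.00273), and Top2a was not called (adjusted p = 0.155). Of 10 genes of the basal epidermis 3 were lower and 2 higher, near the shares of all genes. Krt14 had a log2 fold change of −0.35, a call lost without dexamethasone mice 1, 2 or 4 or MC903 mouse 7 (adjusted p = 0.0517 to 0.0803), Krt5 had an adjusted p of 0.077, and the hemidesmosome genes Col17a1 (0.59) and Dst (1.32) were higher.

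Dermal matrix genes were lower with dexamethasone than with MC903 alone, where their median stood at −0.76 on the log2 scale against vehicle. Of 23 genes 17 were lower and 1 higher (Lox), with a median of −0.85, and 14 of the lower ones had no overlap. Col3a1, a fibrillar collagen, measured 1050 to 1980 CPM (median 1460) in vehicle mice, 667 to 1110 CPM (median 791) in MC903 mice and 103, 174, 261 and 154 CPM in dexamethasone mice, a log2 fold change of −2.31 ± 0.21 (adjusted p = 3.49e-09). Col1a2 followed the same steps, with 1080 to 1700 CPM (median 1370), 439 to 692 CPM (median 483) and 140, 180, 209 and 184 CPM, and Col1a1 had a log2 fold change of −1.77 ± 0.19. Postn, which encodes periostin and which interleukin-13 induces in fibroblasts, fell from between 346 and 550 CPM (median 492) to 46.2, 74.4, 66.0 and 73.3 CPM (−2.84 ± 0.15, adjusted p = 3.38e-14). Without mouse 3, 17 were lower with a median of −0.91. The exceptions were the proteoglycan Dcn, at 691, 816, 567 and 803 CPM against 577 to 949 CPM (median 660) (adjusted p = 0.643), and the crosslinking enzyme Lox, which rose to 87.9, 102, 72.6 and 113 CPM from between 41.3 and 54.8 CPM (median 48.5).

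Of 16 proteases and inhibitors 7 were lower and 3 higher, against 23.3% and 23% of all genes, so the higher ones did not exceed the share of all genes. Without mouse 3, 11 were lower, against 23.5% of all genes. Mmp12, the macrophage elastase, fell from between 2.35 and 18.4 CPM (median 5.09) to 0.45, 0.562, 0.615 and 0.442 CPM, and the inhibitor Timp1 from between 51.1 and 115 CPM (median 60.4) to 2.95, 7.26, 29.2 and 7.0 CPM. Timp3 rose to 384, 359, 279 and 407 CPM from between 164 and 208 CPM (median 179) and Mmp13, a collagenase, to 220, 155, 124 and 221 CPM from between 35.4 and 87.3 CPM (median 60.8). The gelatinase Mmp2 was not called (−0.02, adjusted p = 0.874).

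Glands, fat, muscle and nerve in the biopsy also differed. Sebaceous genes were lower in 9 of 10, with a median of −0.68, and in 7 of 10 without mouse 3, with a median of −0.66. Elovl3, for example, measured 45.9, 103, 100 and 62.0 CPM against 193 to 290 CPM (median 219). Of 15 fat genes 10 were higher, among them the adipokine genes Lep (2.76) and Retn (2.64) and the lipid droplet genes Plin1 (2.16) and Cidec (2.53), while the desaturase Scd1 was lower (−1.40). The summed level of the fat list, which Scd1 enters, was nevertheless lower in every dexamethasone mouse, at 1630 to 1850 CPM against 2320 to 2910 CPM in MC903 mice and 6140 to 7150 CPM in vehicle mice. Lep measured 12, 9.38, 5.90 and 10.7 CPM against 0.786 to 1.92 CPM (median 1.38), and all but mouse 3 lay within the 7.74 to 15.1 CPM (median 11.3) of vehicle mice. Muscle genes were higher in 8 of 10 (median 1.37), with sums of 1390 to 2490 CPM against 298 to 749 CPM in MC903 mice and 1990 to 4370 CPM in vehicle mice. The atrophy ligases Fbxo32 and Trim63, which glucocorticoids induce in muscle, measured 66.7, 46.9, 30.2 and 52.6 CPM and 14.3, 13.1, 7.79 and 10.1 CPM against 13 to 21.2 CPM (median 16.7) and 2.50 to 4.06 CPM (median 3.27). Schwann cell genes were higher in 6 of 7 (median 0.89), with sums of 303 to 382 CPM against 204 to 282 CPM. The muscle sum rose together with Trim63 and Fbxo32, and its part in their rises was not tested.

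Cartilage genes were lower in 5 of 8, with Comp at 10.6, 9.81, 11.8 and 11.7 CPM against 25.6 to 39.7 CPM (median 35.3), and higher in 1, Acan (0.46). Of 18 hair genes 4 were higher, near the 23% of all genes, with a median of −0.36. The keratins Krt84 (6880, 3470, 6180 and 7500 CPM against 479 to 2110 CPM (median 1470)) and Krt36 (4610, 2510, 4520 and 4780 CPM against 503 to 1660 CPM (median 1210)), of hair and nail, rose above levels that MC903 itself had raised from between 0.761 and 3.13 CPM (median 1.25) and 0.0372 to 1.76 CPM (median 0.105) in vehicle mice.

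Among clock and heat shock genes, only Per1 was a DEG. Of 15 clock genes 7 were higher and 2 lower, against 23% and 23.3% of all genes. Per1 came first, then Per2 (1.13), Cry2 (0.81) and Tef (0.78). Nr1d1, the REV-ERBα gene, measured 102, 73.6, 52.1 and 96.0 CPM against 56.7 to 111 CPM (median 94.0) (adjusted p = 0.432). Mouse 3 had the lowest level of the 4 in 14 of the 15 clock genes, and without it 9 were higher and none lower. Of 6 heat shock genes 4 were higher, with Hspb1 at 189, 164, 167 and 187 CPM against 73.8 to 115 CPM (median 101) (0.85 ± 0.10, adjusted p = 6.36e-08) and Hspa1a at 129, 127, 103 and 118 CPM against 70.1 to 114 CPM (median 95.4) (0.35 ± 0.11, adjusted p = 0.0117). The call of Hspa1a was lost without dexamethasone mouse 1 (adjusted p = 0.05).

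Some genes moved further in the direction MC903 had already taken. En1, a homeobox gene, measured 0 to 0.0362 CPM (median 0) in vehicle mice, 0.157 to 0.618 CPM (median 0.34) in MC903 mice and 10.2, 6.83, 5.02 and 6.52 CPM in dexamethasone mice (4.33 ± 0.30, adjusted p = 1.02e-11). The manganese transporter Slc30a10 (3.21), the protease Ecel1 (3.18), the light chain Myl7 (2.45), Defb4 and Krt84 were the other named rises of this kind. Downwards, Acoxl fell from between 31.6 and 42.5 CPM (median 36.2) through between 7.80 and 14.5 CPM (median 11.4) to 0.45, 2.20, 1.85 and 0.7 CPM, followed by Serpina3b (−2.96), Serpinb6d (−2.45), the Wnt modulator Sfrp2 (−1.82), Aadacl2fm1 (−1.71) and Ssc5d (−1.67). MC903 against vehicle called 35.7% of genes lower and 34.5% higher by the same test. That comparison shares the MC903 mice, so these steps are given side by side and not as a test of their sum.

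The fold changes of Mcpt8, Ccl5, Ptx3, Ccl4, Rsad2, Reg3g, Acod1 and Fgf23 differed most between the fits with and without mouse 3, among DEGs of either fit with enough reads. Acod1, the itaconate-producing enzyme of activated macrophages, measured 0.0818, 0.951, 5.90 and 0.221 CPM against 3.55 to 10.6 CPM (median 6.57), with a log2 fold change of −1.98 (adjusted p = 0.0562) with mouse 3 and −4.05 (adjusted p = 0.00134) without it. Fgf23, the phosphate hormone that vitamin D induces, measured 0.246, 0.821, 6.15 and 0.81 CPM against 3.35 to 8.15 CPM (median 5.07), and moved from −1.53 to −3.16. The call of Fgf23 was lost without dexamethasone mice 1, 2 or 4 or MC903 mice 2, 3, 4, 5 or 7 (adjusted p = 0.0514 to 0.143), and that of Ccl4 without dexamethasone mice 2 or 4 (adjusted p = 0.0523 to 0.0563). Ptx3, a soluble pattern receptor, moved from −3.05 to −4.83. In all 8 genes mouse 3 had the highest value of the dexamethasone group, which follows largely from their choice by dependence on that mouse. Over all 20167 genes mouse 3 was the highest of the dexamethasone mice in 7066 and the lowest in 6805. Of the steroid targets, Tsc22d3 moved from 1.95 to 2.12 and Fkbp5 from 1.81 to 1.90.

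**Figure D4:**
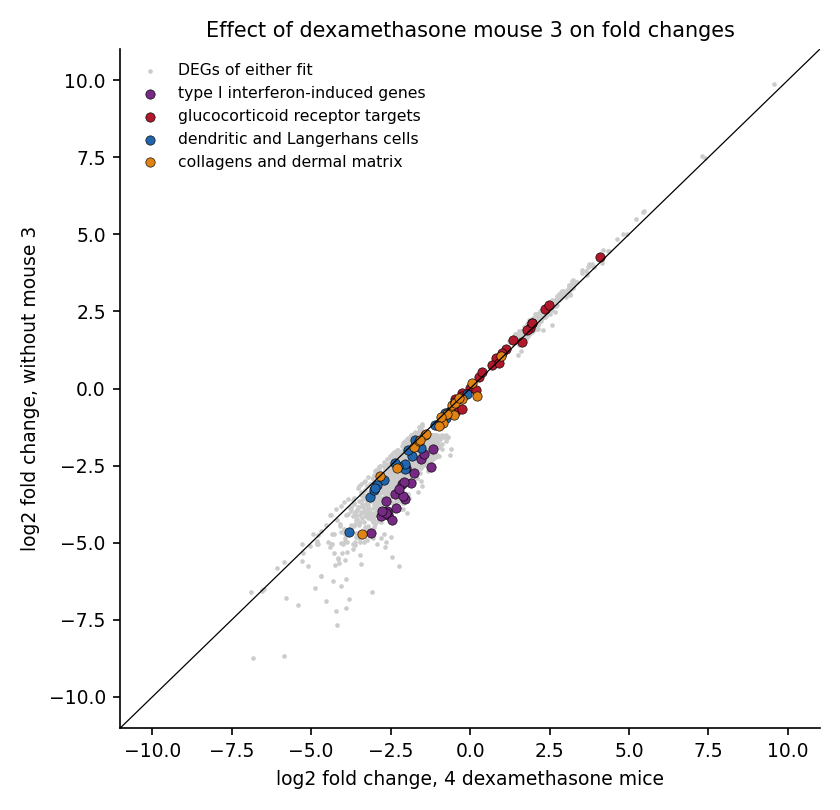
Log2 fold change of dexamethasone against MC903 with all 4 dexamethasone mice (x axis) and without mouse 3 (y axis), 1 point per gene, for DEGs of either fit (grey) and the members of 4 gene lists (coloured), with the line of equal values. Type I interferon-induced genes lie below the line (medians −2.19 and −3.45), while glucocorticoid receptor targets lie close to it (medians 0.87 and 0.92).

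**Figure D5:**
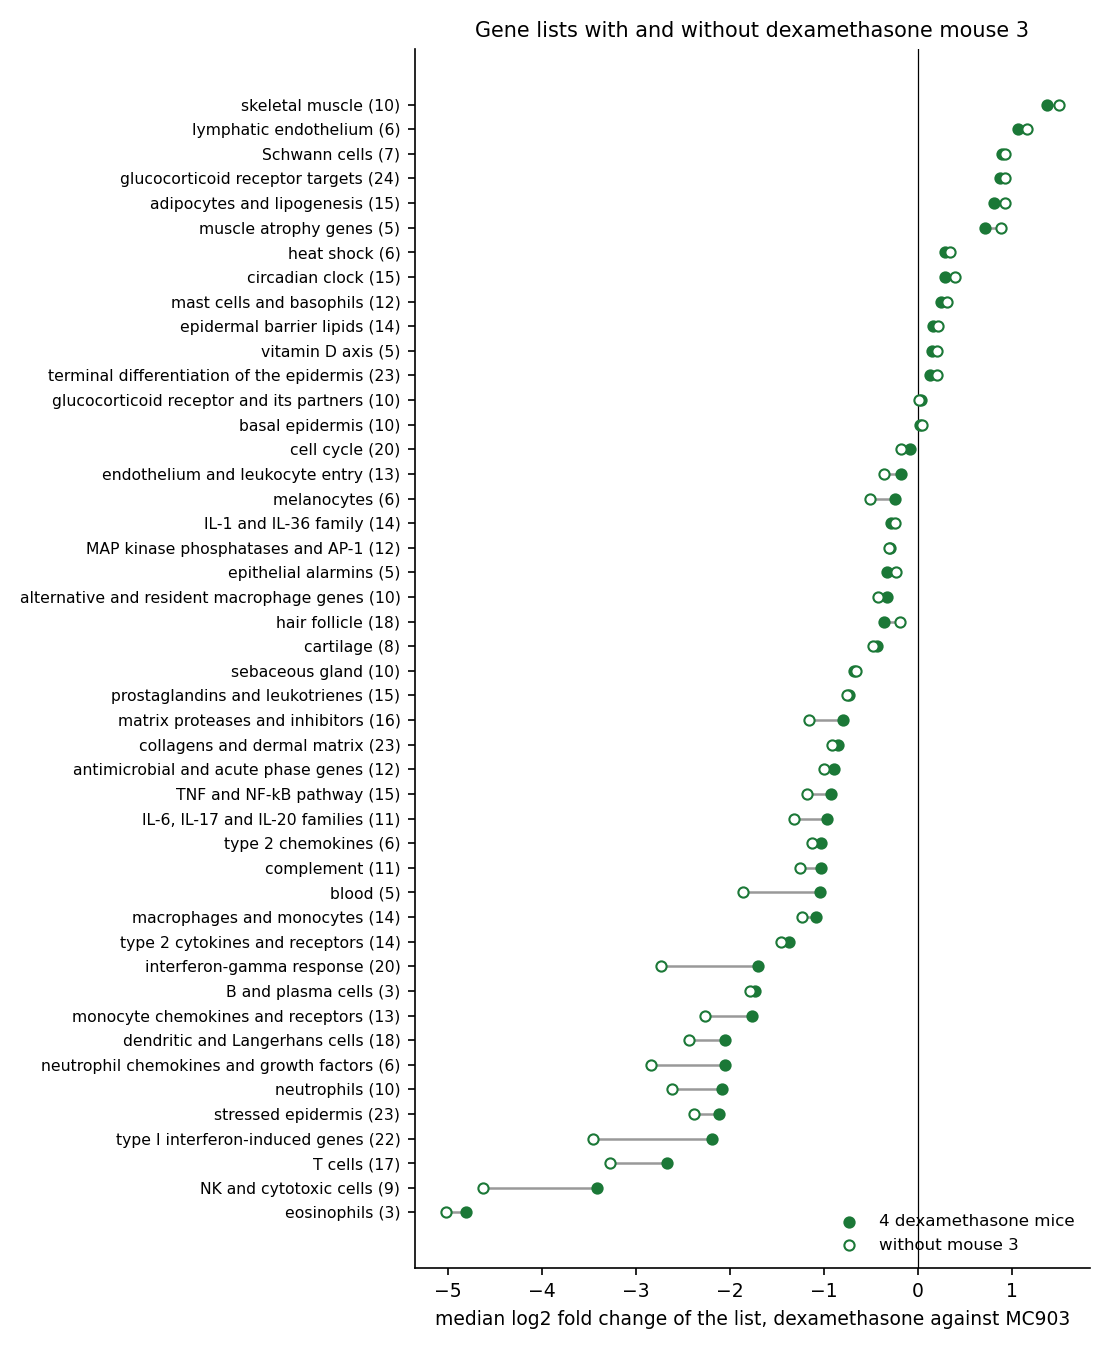
Median log2 fold change of each gene list, dexamethasone against MC903, with 4 dexamethasone mice (filled points) and without mouse 3 (open points), and the number of genes tested in parentheses. Medians run from −4.80 for eosinophil genes to 1.37 for skeletal muscle, and the interferon lists shift most among lists of 20 genes or more. The eosinophil median rests on 3 tested genes with few reads in vehicle and dexamethasone mice, for which the filter on low counts favours a fall.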

How the data were processed

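RNA from 4 mm ear biopsies was made into stranded libraries from 100 ng of total RNA and sequenced as paired 150-base reads. The authors aligned them to GRCm39 with Subread 2.10.3 and deposited raw counts per gene of reads that mapped uniquely and without ambiguity, so reads shared by near-identical genes are missing. The table holds 57010 gene identifiers, of which 17061 had no count and 700 had no symbol (0.0631% of counts). Groups and mouse numbers were taken from the sample labels, each mouse being 1 library. The numbers of mice do not pair the groups.

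Genes were filtered with filterByExpr (minimum count 10, minimum total 15), which left 20167, and scaled by TMM (factors 0.9057 to 0.9836 in MC903 and 0.9195 to 0.9464 in dexamethasone mice). One robust quasi-likelihood fit over all 26 libraries (edgeR 4.0.16, limma 3.58.1, R 4.3.3) gave the contrast of dexamethasone with MC903, adjusted by Benjamini-Hochberg over all genes tested. Standard errors were derived from the fold change and its F statistic. The same step was run on simulated data for this contrast over 20167 genes. It recovered 98% of 4-fold and 97% of 2-fold changes, with 4.41% of calls false. Changes were planted only in a small set of genes with higher expected counts, so the recoveries describe such genes and not all genes tested. Far fewer genes were changed than were called in the real data. Recovery for genes of a few reads per library, such as Il4, Il13 and Il5ra, was not tested. Alternatives were DESeq2 1.42.0, its size factors in edgeR, no filter or a mean normalized count above 25, a test against the fold limit, only the 12 libraries compared, a replicate block, and leaving out each mouse. Intervals and floors cover counting error only. Promoters were read from GRCm39 with the GENCODE mouse release 39 annotation, as protein-coding genes' starts, and figures used Python 3.11.15 and matplotlib 3.10.9.

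Genes named were the 12 largest rises and falls without overlap whose mean log2 CPM was 2 or more in either group, up to 6 members of each list that passed with the smallest p and up to 2 of the highest level that did not, 13 genes as checks, the 8 most dependent on dexamethasone mouse 3, and 6 per direction that moved as with MC903. Col1a1, Il20ra, Mmp13, Nr3c1, Ptgs2, Tnf, Zfp36 and other list members given without that rule were chosen after their values were seen. The comparison, the 46 gene lists and the rule were chosen with earlier results of these data known. A few genes that this rule chose are not reported here.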

Additional observations from a re-analysis of the deposited data

Results flagged for a closer look

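In 422 groups of mice (211 named genes in the dexamethasone and MC903 groups), 25 held 1 mouse whose gap to the nearest other exceeded Dixon's 95% critical value; chance flags about 1 in 20 groups. Of these, 6 were dexamethasone mouse 3. No explanation was tested. In MC903 mouse 6, Cldn1 stood at 282 CPM (others 309 to 333). In MC903 mouse 7, Alas2 stood at 1.31 CPM (others 2.61 to 4.24), Cd207 stood at 13.2 CPM (others 18.0 to 23.2), Cyp24a1 stood at 2780 CPM (others 1970 to 2300), Hba-a1 stood at 18.5 CPM (others 36.9 to 61.0), Hba-a2 stood at 16 CPM (others 34.2 to 54.1), Il1a stood at 66.4 CPM (others 31.2 to 41.0), Klf15 stood at 1.39 CPM (others 2.34 to 3.39), Retn stood at 0.386 CPM (others 1.26 to 2.83), Serpina3b stood at 1.55 CPM (others 3.52 to 6.38) and Thrsp stood at 0 CPM (others 0.119 to 0.32). In MC903 mouse 8, Dcn stood at 949 CPM (others 577 to 701), Irf7 stood at 150 CPM (others 231 to 300), Klf9 stood at 60.7 CPM (others 38.6 to 47.4) and Lyve1 stood at 21.6 CPM (others 15 to 17.6). In dexamethasone mouse 1, C1qb stood at 26.6 CPM (others 43.0 to 45.5) and Il1a stood at 47.3 CPM (others 42.3 to 43.0). In dexamethasone mouse 2, Krt36 stood at 2510 CPM (others 4520 to 4780). In dexamethasone mouse 3, Cxcl3 stood at 0.666 CPM (others 0.405 to 0.432), Hmgb1 stood at 85.5 CPM (others 97.7 to 99.9), Krt14 stood at 10600 CPM (others 8260 to 8590), Krt6a stood at 4440 CPM (others 1650 to 1910), Prox1 stood at 3.18 CPM (others 5.32 to 5.52) and Tpsb2 stood at 32.8 CPM (others 43.9 to 45.7). In dexamethasone mouse 4, Ccr3 stood at 0 CPM (others 0.0409 to 0.0513).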

How the results depend on the processing

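The 1187 lower and 524 higher DEGs became 1493 and 704 with DESeq2, 1594 and 828 without a filter on low counts, 759 and 304 above a mean normalized count of 25 (fewer genes tested), 1112 and 439 in a fit of the MC903 and dexamethasone libraries only, and 320 and 108 when tested against the fold limit itself, a stricter hypothesis. Leaving out 1 dexamethasone mouse gave 1076 to 1423 lower and 456 to 652 higher DEGs, and leaving out 1 MC903 mouse 1105 to 1200 and 502 to 549. The mouse numbers share only a number: deviations of same-numbered mice correlated at 0.139, −0.015, −0.076 and −0.097, and a replicate block gave 1128 lower and 570 higher DEGs. Among the 349 genes chosen by the rule, no called gene changed sign under the alternatives run, and the other genes were not checked for this. Values that did not pass could change sign, as for Mmp2, between −0.06 and 0.025 over the left-out mice. Of the 349 genes chosen by the rule, 325 kept their side of the threshold without dexamethasone mouse 3, 19 passed only without it and 5 only with it. Leaving out dexamethasone mouse 1, 2 or 4 instead lost the calls of 24, 15 and 22 of these genes and gained 1, 2 and 0. Genes of a few reads per library, such as Il4, Il13 and Il5ra, are limited by depth. The 4 mice in the smaller group, of which mouse 3 was the least like the others, limit every comparison. Nothing in the labels says whether mice were processed in batches, and p-values measure the spread between mice of one experiment.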
